A study of Mus musculus with 19 samples.

Results

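Immediate early genes are transcribed within minutes of a stimulus, without new protein synthesis, and 10 of them were followed here in mouse sciatic nerve: Fos, Fosb, Fosl2, Junb, Egr1, Egr3, Nr4a1, Ier2, Ier3 and Dusp1. The 10 genes were listed by name, and each was read from 1 probe set, the one with the highest mean over all arrays among the probe sets that carry its symbol alone. They are 10 of the 18193 genes with a symbol on the array, and all 10 were among the 13460 genes bright enough to be tested. 8 of them had a single such probe set, while Fosl2 and Egr3 had 2 each.

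The study measured transcripts with Affymetrix arrays, 1 per mouse, and asked whether rosiglitazone, a drug that activates PPAR gamma, alters the neuropathy of diabetic mice. All 19 mice were DBA/2J, 1 inbred strain with no allele or transgene named, so strain effects cannot be seen. The control vehicle group, with arrays CV702 to CV705, was not diabetic and its treatment is labelled none (4 mice). The diabetic vehicle group, DV706 to DV710, had received streptozotocin (STZ), a toxin that destroys insulin-producing beta cells and so gives a type 1 model (5 mice). The control rosiglitazone group, CR711 to CR715, had received rosiglitazone alone (5 mice), and the diabetic rosiglitazone group, DR716 to DR720, STZ and rosiglitazone (5 mice). The authors left out 1 further control array after quality control. Age, sex, doses, the length of treatment, and the time and manner of death and dissection are not given in the sources used here. The tissue label was checked on Mbp and Pmp22, both proteins of peripheral myelin, which lay at 13.83 to 14.44 and 13.82 to 14.34 on the log2 scale in all arrays. High values of myelin genes do not show whether a sample also held cell bodies of sensory neurons. Isl1, made by sensory neurons, whose cell bodies lie outside the nerve, ranged from 3.83 to 11.35, so the samples differed in this transcript. The mean of the sensory neuron markers was low in DV706, DV707, DV709, CR715 and DR716, and higher in the other 14 arrays. The part of dissection and of RNA integrity in this was not tested. In such bulk samples, fewer cells of a type and less RNA per cell cannot be told apart.

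Growth factors, depolarisation, calcium entry and mechanical or metabolic stress reach these genes through MAP kinases and cyclic AMP, which act on factors already bound at the promoters, among them SRF with its ternary complex partners and CREB. Most products are short-lived transcription factors: Fos and Jun proteins pair to form AP-1, EGR proteins are zinc finger factors, and NR4A proteins are nuclear receptors. Others, such as Dusp1, switch the kinases off again. In peripheral nerve the family is known for its response to injury.

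Reference promoters show one sequence through which cyclic AMP signals act, the cyclic AMP response element (CRE) TGACGTCA and its shorter core TGACG. Of the 10 genes, 7 had an entry in the RefSeq promoter table for GRCm38.p6, namely Fos, Fosb, Fosl2, Junb, Nr4a1, Ier3 and Dusp1. The core, on either strand, was in 5 of these 7 promoters of 300 bases, against 21.0% of 27018 promoters in the table. The windows below hold the 150 bases before the transcription start of those 5 genes, and of Ier3, which is shown because its array values, below, ran apart from the others. Capitals mark a CRE or its core, which on the reverse strand reads CGTCA, and each sequence runs 5′ to 3′ on the strand of its gene. Fos lies on the plus strand at chr12:85473740-85473889, Fosb on the minus strand at chr7:19310046-19310195, Junb on the minus strand at chr8:84978749-84978898, Nr4a1 on the plus strand at chr15:101266696-101266845, Dusp1 on the minus strand at chr17:26508473-26508622 and Ier3 on the plus strand at chr17:35821563-35821712.
Fos: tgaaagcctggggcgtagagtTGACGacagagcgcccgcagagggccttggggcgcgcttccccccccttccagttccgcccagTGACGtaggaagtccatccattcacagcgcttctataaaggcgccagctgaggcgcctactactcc
Fosb: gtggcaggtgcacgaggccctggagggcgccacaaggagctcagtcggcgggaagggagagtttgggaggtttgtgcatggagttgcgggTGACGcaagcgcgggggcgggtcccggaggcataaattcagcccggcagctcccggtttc
Junb: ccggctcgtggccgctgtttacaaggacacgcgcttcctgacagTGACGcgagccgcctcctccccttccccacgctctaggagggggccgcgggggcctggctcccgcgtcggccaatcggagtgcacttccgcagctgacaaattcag
Nr4a1: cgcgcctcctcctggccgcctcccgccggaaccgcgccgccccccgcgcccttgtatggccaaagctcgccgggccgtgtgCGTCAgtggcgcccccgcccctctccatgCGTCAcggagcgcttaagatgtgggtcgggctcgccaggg
Dusp1: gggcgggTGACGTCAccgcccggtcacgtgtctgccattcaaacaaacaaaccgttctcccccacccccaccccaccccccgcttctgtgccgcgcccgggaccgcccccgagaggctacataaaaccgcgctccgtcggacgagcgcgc
Ier3: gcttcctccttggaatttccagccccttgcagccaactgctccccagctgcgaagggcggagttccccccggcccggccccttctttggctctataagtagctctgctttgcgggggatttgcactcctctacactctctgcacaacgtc
The window of Dusp1 held the full CRE, which 1 of 7 members and 1.88% of all promoters had. Fos and Nr4a1 held 2 cores each in these windows, and Fosb and Junb 1 each, while the window of Ier3 held none. Fosl2, whose window is not shown, also had neither a CRE nor its core in its 300 bases. The array values of Fosl2, below, correlated positively with those of every gene but Ier3. A link between the core and the array values was not tested. Searched on both strands of the 300 bases, the EGR site GCGNGGGCG, which may overlap with other motifs, was in 3 of the 7 promoters (Fosb, Fosl2 and Nr4a1) against 5.56% of all. The AP-1 site TGANTCA was in 0 of the 7 against 7.94%, and the CArG box, the SRF binding motif, in 0 of the 7 against 1.57%. With shares this low, a count of 0 in 7 promoters does not set these genes apart. Sites outside the 300 bases around the start, or in Egr1, Egr3 and Ier2, which had no entry, could not be seen. All motif counts are matches of letters in the reference, and binding was not measured.

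No immediate early gene differed between groups at an adjusted p under 0.05 in any of the 5 comparisons, and the values of the groups overlapped for all 10 genes. Single arrays stood apart instead. In CR715 and DR716, from different groups, 9 of the 10 genes were among the 3 highest of the 19 arrays, and in DV706 7 of them were. The gene left out in CR715 and DR716 was Ier3, which did not follow the others. The plot of every array's values shows this for each gene.

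**Figure D1:**
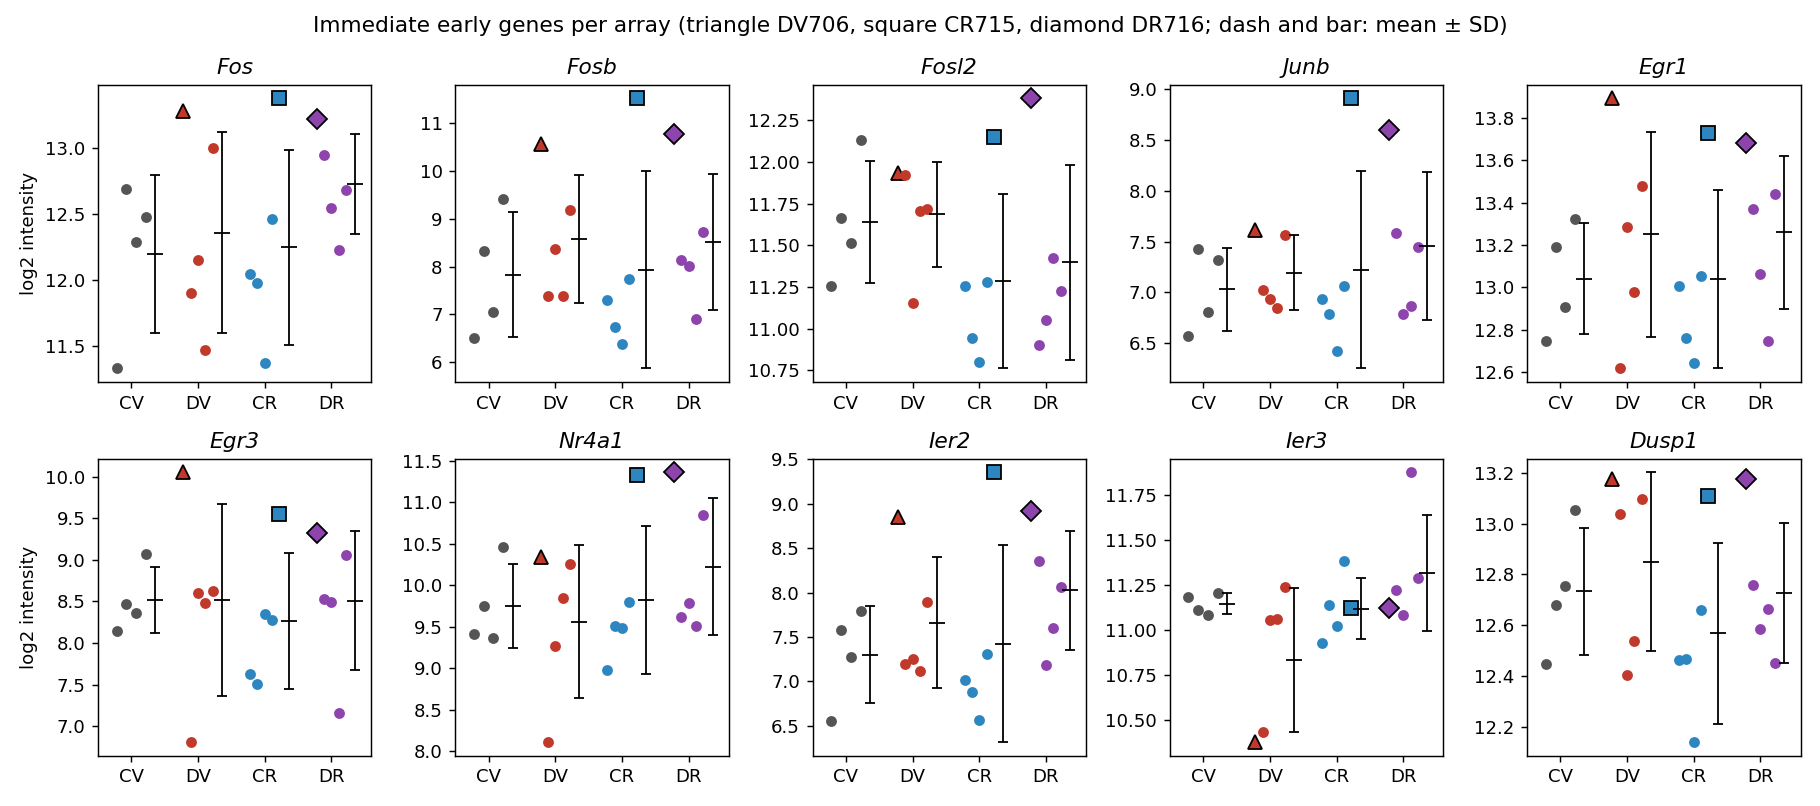
Log2 intensity of each of the 10 immediate early genes (vertical axis, own scale in each panel) in the 19 arrays, by group, with every point 1 mouse and bars giving the group mean ± SD (4 control vehicle mice and 5 in each other group). CR715 is the highest of all arrays for Fosb at 11.52, Junb at 8.91 and Ier2 at 9.36, while group means lie within the spread of the points.

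Fos encodes the founding partner of AP-1. Its log2 intensity was 11.33, 12.69, 12.29 and 12.48 in CV702, CV703, CV704 and CV705, and 13.28, 11.90, 12.15, 11.47 and 13.00 in DV706 to DV710 in order. It was 12.05, 11.98, 11.37, 12.47 and 13.38 in CR711 to CR715, and 13.22, 12.95, 12.55, 12.23 and 12.68 in DR716 to DR720. The highest 3 values came from 3 groups, and every group overlapped with every other. The mean ± SD was 12.20 ± 0.60 (n = 4) in control vehicle, 12.36 ± 0.76 (n = 5) in diabetic vehicle, 12.25 ± 0.74 (n = 5) in control rosiglitazone and 12.72 ± 0.38 (n = 5) in diabetic rosiglitazone mice. The limma estimates were 0.16 (SE 0.41) for diabetes under vehicle, 0.36 (SE 0.38) for rosiglitazone in diabetic mice, and 0.48 (SE 0.38) for diabetes under rosiglitazone, all within the spread between mice.

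Fosb, a Fos relative whose truncated form persists in neurons after repeated stimulation, varied most. It was 6.52, 8.33, 7.05 and 9.42 in CV702 to CV705, and 10.57, 7.39, 8.37, 7.40 and 9.19 in DV706 to DV710. It was 7.30, 6.74, 6.38, 7.75 and 11.52 in CR711 to CR715, and 10.77, 8.14, 8.02, 6.91 and 8.73 in DR716 to DR720. The 3 arrays above 10 belonged to 3 different groups, and the other 16 arrays lay at 9.42 or below. From the lowest to the highest array the intensity differed 35.2-fold. Its SD within groups, 1.58, exceeded that of 97.6% of the tested genes, whose median SD was 0.319. The group means ran from 7.83 ± 1.31 (control vehicle, n = 4) to 8.58 ± 1.34 (diabetic vehicle, n = 5), a log2 difference of 0.75 with a 95% interval of -1.35 to 2.86.

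Fosl2 (Fra-2), a later and longer-lasting member of the Fos family, was 11.25, 11.66, 11.51 and 12.13 in CV702 to CV705, and 11.93, 11.92, 11.16, 11.71 and 11.72 in DV706 to DV710. It was 11.25, 10.94, 10.80, 11.28 and 12.15 in CR711 to CR715, and 12.38, 10.90, 11.05, 11.43 and 11.23 in DR716 to DR720. CR715 and DR716 were the highest of both rosiglitazone groups, in which the other 4 mice lay at or below 11.43. The means were 11.64 ± 0.37 and 11.69 ± 0.32 under vehicle (n = 4 and n = 5), and 11.28 ± 0.52 and 11.40 ± 0.58 under rosiglitazone (n = 5 each), in control and diabetic mice in turn. Rosiglitazone against vehicle gave -0.36 (SE 0.30) in control and -0.29 (SE 0.28) in diabetic mice, and neither passed the test. Without DR716 the second became -0.54, with an unadjusted limma p of 0.0461 and an adjusted p of 0.245. The second, dimmer Fosl2 probe set ran from 4.86 to 7.42, again with DR716 highest.

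Junb, a Jun protein that restrains c-Jun while itself forming AP-1, was 6.57, 7.42, 6.81 and 7.32 in CV702 to CV705, and 7.61, 7.02, 6.93, 6.85 and 7.57 in DV706 to DV710. It was 6.93, 6.78, 6.43, 7.06 and 8.91 in CR711 to CR715, and 8.59, 7.59, 6.78, 6.87 and 7.45 in DR716 to DR720. Only CR715 and DR716 exceeded 8, and the other 17 arrays spanned 6.43 to 7.61. The group means were ordered from 7.03 ± 0.41 (control vehicle, n = 4) through 7.20 ± 0.36 (diabetic vehicle, n = 5) and 7.22 ± 0.97 (control rosiglitazone, n = 5) to 7.46 ± 0.73 (diabetic rosiglitazone, n = 5), and no neighbours in this order differed beyond their spread. Rosiglitazone in diabetic mice gave 0.26 (SE 0.41), and without DR716 -0.02.

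Egr1, the zinc finger factor induced by serum and growth factors, varied least among the transcription factors. Its lowest, median and highest values were 12.75, 13.05 and 13.32 in control vehicle, 12.62, 13.29 and 13.89 in diabetic vehicle, 12.64, 13.01 and 13.73 in control rosiglitazone, and 12.75, 13.37 and 13.68 in diabetic rosiglitazone mice. The highest value of each of the last 3 groups came from DV706, CR715 and DR716. The means were 13.04 ± 0.26 (n = 4), 13.25 ± 0.48, 13.04 ± 0.42 and 13.26 ± 0.36 (n = 5 each) in the same order. Rosiglitazone in diabetic mice gave 0.0094 with a 95% interval of -0.50 to 0.52.

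Egr3, a relative of Egr1 best known in muscle spindles and lymphocytes, was 8.14, 8.47, 8.37 and 9.07 in CV702 to CV705, and 10.06, 6.81, 8.60, 8.48 and 8.63 in DV706 to DV710. It was 7.63, 7.50, 8.35, 8.28 and 9.55 in CR711 to CR715, and 9.32, 8.53, 8.49, 7.16 and 9.05 in DR716 to DR720. The diabetic vehicle group held both the highest and the lowest of the 19 values, DV706 and DV707, which differ 9.51-fold. Its mean, 8.52 ± 1.15 (n = 5), was the same to within 0.0015 as that of control vehicle, 8.51 ± 0.39 (n = 4), with an interval of -1.15 to 1.16. The rosiglitazone groups had 8.26 ± 0.81 (control, n = 5) and 8.51 ± 0.83 (diabetic, n = 5). The second Egr3 probe set varied less, at 5.70 to 6.66, near the filter for testing (5.54). There DV707 was the highest array, at 6.66, not the lowest. With the mean of both probe sets, the difference for diabetes under vehicle was 0.20.

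Nr4a1 (Nur77), an orphan nuclear receptor, was 9.41, 9.76, 9.36 and 10.47 in CV702 to CV705, and 10.34, 8.11, 9.26, 9.85 and 10.25 in DV706 to DV710. It was 8.98, 9.50, 9.48, 9.79 and 11.33 in CR711 to CR715, and 11.37, 9.61, 9.79, 9.51 and 10.85 in DR716 to DR720. CR715 and DR716 were again highest, and DV707 lowest. The means were 9.75 ± 0.51 (control vehicle, n = 4), 9.56 ± 0.92 (diabetic vehicle, n = 5), 9.82 ± 0.89 (control rosiglitazone, n = 5) and 10.23 ± 0.83 (diabetic rosiglitazone, n = 5). Rosiglitazone in diabetic mice gave the largest estimate among the 10 genes in that comparison, 0.66 with an interval of -0.37 to 1.70, and 0.38 without DR716, and its adjusted limma p was 0.573.

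Ier2, a small nuclear protein induced by growth factors, was 6.55, 7.58, 7.28 and 7.80 in CV702 to CV705, and 8.85, 7.20, 7.25, 7.12 and 7.89 in DV706 to DV710. It was 7.01, 6.88, 6.57, 7.31 and 9.36 in CR711 to CR715, and 8.92, 8.36, 7.19, 7.60 and 8.06 in DR716 to DR720. CR715, DR716 and DV706 were the highest 3 arrays, in that order. The means were 7.30 ± 0.54 (n = 4), 7.66 ± 0.73, 7.43 ± 1.11 and 8.03 ± 0.67 (n = 5 each) in control vehicle, diabetic vehicle, control rosiglitazone and diabetic rosiglitazone mice. Diabetes under rosiglitazone gave 0.60 (SE 0.48). Without CR715 that difference was 1.08, with an unadjusted limma p of 0.0122 and an adjusted p of 1.00, and without DR716 it was 0.38. Of all tested genes, 1.2% were higher at an unadjusted p under 0.05 without CR715.

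Ier3 (IEX-1), a stress-induced regulator of cell survival, ran apart from the rest. It was 11.18, 11.11, 11.08 and 11.20 in CV702 to CV705, and 10.37, 10.43, 11.06, 11.06 and 11.24 in DV706 to DV710. It was 10.93, 11.13, 11.02, 11.38 and 11.12 in CR711 to CR715, and 11.12, 11.22, 11.08, 11.87 and 11.29 in DR716 to DR720. 17 of the 19 arrays lay at 10.93 or above, and the 2 below, DV706 and DV707, were diabetic vehicle mice. DV706, among the highest 3 arrays for 7 other genes, was the lowest of all for Ier3. The means were 11.14 ± 0.06 (control vehicle, n = 4), 10.83 ± 0.40 (diabetic vehicle, n = 5), 11.12 ± 0.17 (control rosiglitazone, n = 5) and 11.32 ± 0.32 (diabetic rosiglitazone, n = 5).

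In the comparison of rosiglitazone with vehicle in diabetic mice, Ier3 gave 0.49 (SE 0.18, 95% interval 0.12 to 0.86), the 1 estimate among the 10 genes and 5 comparisons with an unadjusted limma p under 0.05, at 0.0133, and an adjusted p of 0.498. It therefore did not pass the test. In the same comparison 4.13% of all tested genes were higher at an unadjusted p under 0.05, so that 1 of 10 genes is not set apart from the background. The estimate rested on DV706 and DV707: without both it was 0.20, with an unadjusted p of 0.213, whereas without DR716 it was 0.53. DV706 and DV707 also had the highest 3′ minus 5′ differences of the Gapdh control probe sets, at 3.71 and 4.38 against 1.00 to 1.75 in the other 17 arrays. A larger difference is a sign of poorer RNA integrity. With this difference as a covariate the estimate for Ier3 was 0.21, with an unadjusted p of 0.155. The part of RNA integrity in the Ier3 values was not tested further. DR719, at 11.87, was the highest array, and leaving it out lowered the estimate to 0.35.

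Dusp1 (MKP-1), the phosphatase that inactivates MAP kinases, had the narrowest range, 2.05-fold. Its lowest, median and highest values were 12.45, 12.71 and 13.05 in control vehicle, 12.40, 13.04 and 13.17 in diabetic vehicle, 12.14, 12.47 and 13.11 in control rosiglitazone, and 12.45, 12.66 and 13.18 in diabetic rosiglitazone mice. DR716, DV706 and CR715 were the highest 3 arrays. The means, 12.73 ± 0.25 (n = 4), 12.85 ± 0.35, 12.57 ± 0.36 and 12.73 ± 0.28 (n = 5 each) in the same order, lay within 1 SD of each other, and the 4 comparisons of 2 groups gave -0.17 to 0.16 with SEs of 0.20 to 0.21.

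In the 4 comparisons of 2 groups and in the interaction (the rosiglitazone effect in diabetic mice minus that in control mice), limma called 0 of the 10 genes at an adjusted p under 0.05, and 0% of the 13460 tested genes. At an unadjusted p under 0.05 the shares of tested genes that were higher and lower were 10.7% and 7.39% for diabetes under vehicle, 4.13% and 5.56% for rosiglitazone in diabetic mice, 1.48% and 1.35% for rosiglitazone in control mice, 0.468% and 0.817% for diabetes under rosiglitazone, and 1.88% and 2.89% for the interaction. The first pair of shares changed with the arrays used, to 2.54% and 1.96% without DV706 and DV707, to 5.57% and 3.51% without DV706 alone, to 6.11% and 4.2% without DV707 alone, to 6.56% and 4.51% without CV705, and to 17.3% and 12% without DV710. For rosiglitazone in diabetic mice they were 0.624% and 1.29% without DV706 and DV707, and over single arrays left out they ran from 1.3% and 2.02% without DV706 to 8.62% and 13.7% without DV710. Among the 10 genes, with all arrays, this count was 1 higher, Ier3 under rosiglitazone in diabetic mice, and 0 in the other comparisons. Values of 2 groups did not overlap for 0 of the 10 genes, against 2.63% higher and 2.43% lower of all tested genes for diabetes under vehicle, 0.245% and 0.386% for rosiglitazone in diabetic mice, 1.58% and 1.87% for rosiglitazone in control mice, and 0.178% and 0.223% for diabetes under rosiglitazone.

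The direction of the estimates is shown as a description. Under diabetes with vehicle, 8 of 10 genes had a positive estimate, with a median of 0.14 against 0.03 over all tested genes, of which 52.9% were positive. With rosiglitazone in diabetic mice it was 6 of 10 and 0.13, against -0.02 and 47.2%. In control mice rosiglitazone gave 5 of 10 and 0.02, against 50.6% of all genes. Diabetes under rosiglitazone gave 10 of 10 and 0.24, against 0.01 and 51.7%, and the interaction 9 of 10 and 0.15, against -0.02 and 48.2%. Comparisons that share a group share its arrays, and the 10 genes share the array effects described next, so such counts are not 10 separate observations.

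Except for diabetes under rosiglitazone, these directions turned on single arrays. Without DR716, rosiglitazone in diabetic mice had a positive estimate in 4 of 10 genes (median -0.06), diabetes under rosiglitazone in 8 of 10 (median 0.08) and the interaction in 5 of 10 (median -0.03). Over all tested genes, the same exclusion brought the shares with an unadjusted p under 0.05 to 7.9% higher and 12.1% lower for rosiglitazone in diabetic mice, 0.438% and 1.14% for diabetes under rosiglitazone, and 3.42% and 7.19% for the interaction. The 10 genes then had Ier3 higher and Fosl2 lower in the first of these, and 0 in the others. Without CR715, rosiglitazone in control mice had a positive estimate in 0 of 10 genes (median -0.31), and diabetes under rosiglitazone had a median of 0.61. Without DV706, diabetes under vehicle had a positive estimate in 5 of 10 (median 0.01). Without CV702, the lowest control vehicle array, it was also 5 of 10 (median -0.036), and rosiglitazone in control mice 1 of 10 (median -0.18). The interaction was at 5 of 10 without CV705 (median 0.016) or CR713 (median -0.015). Diabetes under rosiglitazone kept a positive estimate in 8 to 10 of the 10 genes whichever single array was left out, with medians of 0.08 to 0.61. Fosb moved most: its estimate for rosiglitazone in diabetic mice went from -0.07 to -0.63 without DR716, and for rosiglitazone in control mice from 0.11 to -0.78 without CR715. The plot of estimates sets the values with and without DR716 side by side.

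**Figure D2:**
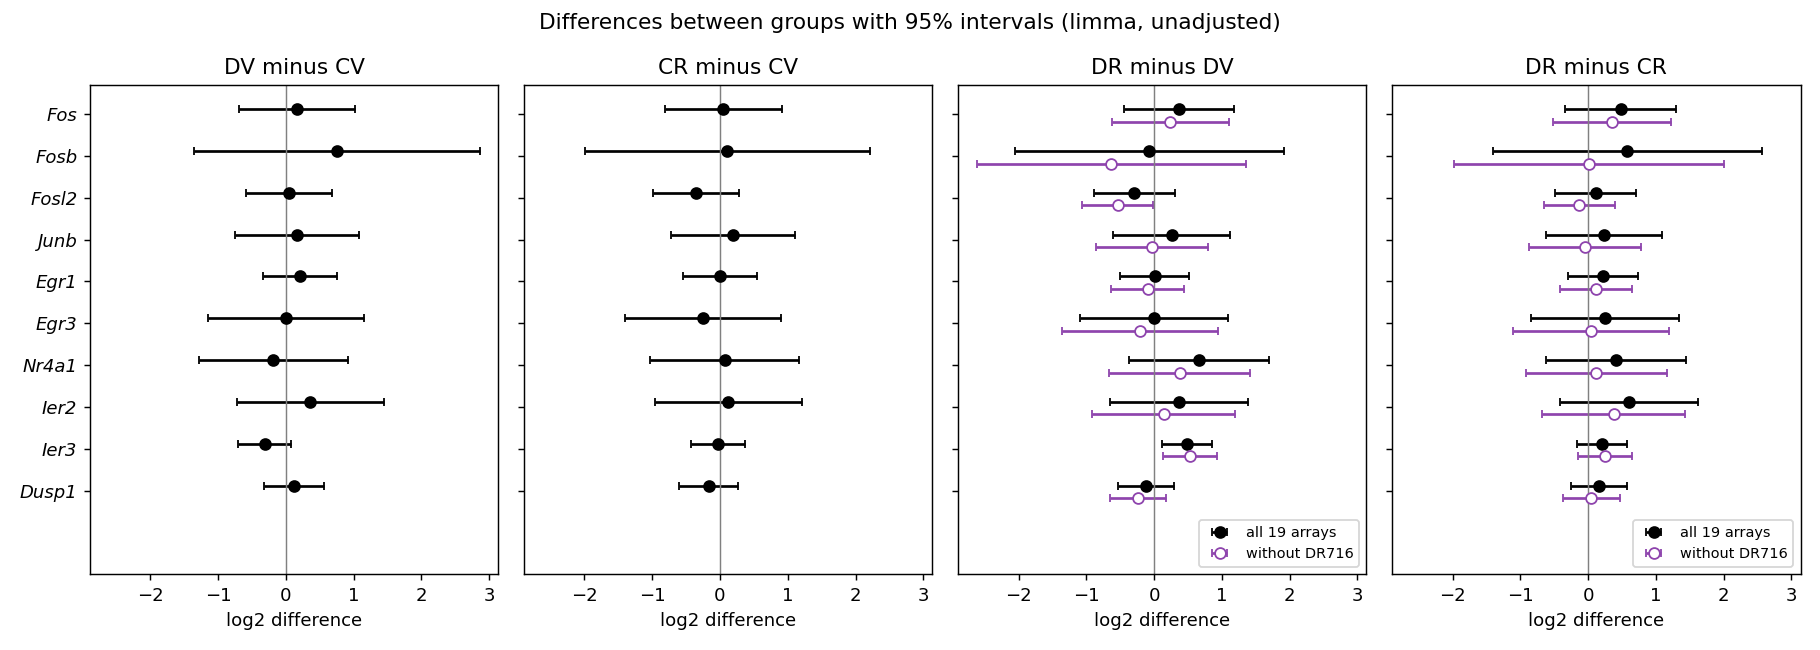
Log2 difference between groups (horizontal axis) for each of the 10 genes (rows) in the 4 comparisons of 2 groups, with limma's 95% intervals from all 19 arrays (filled) and, where the group of DR716 enters, without that array (open). From all arrays the intervals include 0 for every gene except Ier3 in DR minus DV, at 0.12 to 0.86, and that of Fosb is the widest.

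The variation between mice was shared by 9 of the 10 genes. Over the 19 arrays all 36 pairs of genes without Ier3 correlated positively, with Pearson's r from 0.40 to 0.93 and a median of 0.76. Without DR716 the median was 0.71, and with each gene centred on its group means it was 0.81, so the shared variation lay within groups. The highest values were those of Junb with Ier2 (r = 0.93, Spearman's rho = 0.93) and of Fosb with Egr1 (r = 0.93, rho = 0.93). Without the 2 arrays farthest from the median of the first gene these were 0.91 and 0.94, while Fosl2 with Nr4a1 fell from 0.48 to 0.14. The 9 pairs with Ier3 ran from -0.27 to 0.23, and r was positive for 1 of them. By Spearman's rho they ran from -0.05 with Fosl2, the only negative pair, to 0.38 with Nr4a1. All points come from the same arrays and share their normalization and tissue content, and these correlations are a description.

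**Figure D3:**
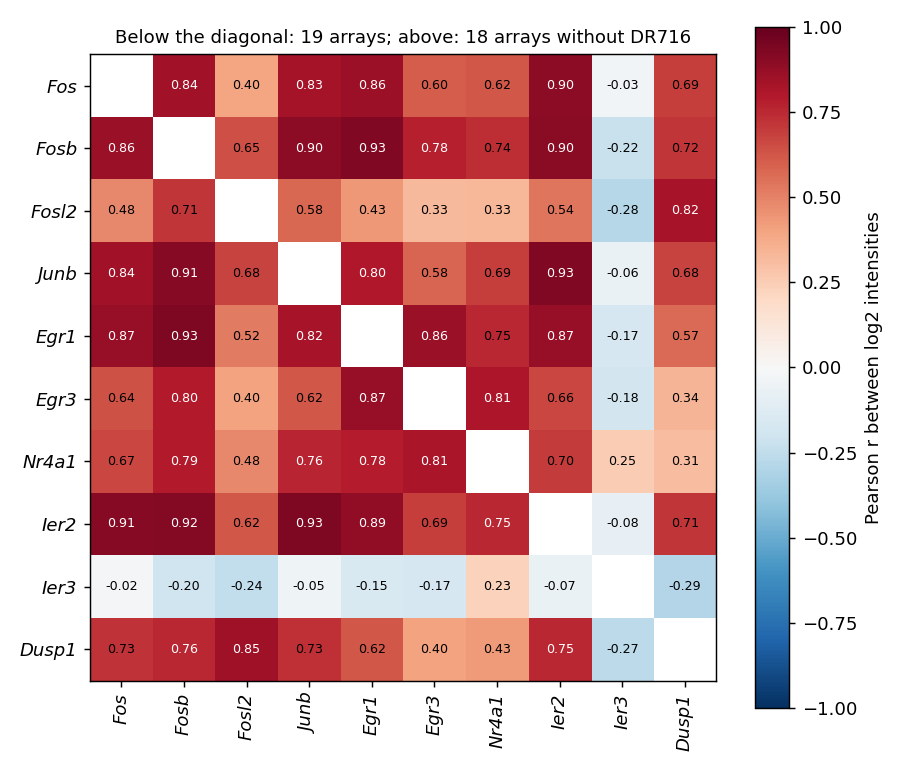
Pearson's correlation for every pair of the 10 genes, as a coloured grid with both axes listing the genes, over the 19 arrays below the diagonal and without DR716 above it. Over all arrays pairs without Ier3 lie between 0.40 and 0.93 and those with Ier3 between -0.27 and 0.23, and without DR716 they lie between 0.31 and 0.93 and between -0.29 and 0.25.

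To place the arrays, each gene was centred on its mean over the 19 arrays and the 10 values of an array were averaged. This level was 1.19 in CR715, 1.03 in DR716 and 0.78 in DV706, then 0.40 in CV705 and 0.38 in DV710, and it was lowest in DV707 at -0.58, CV702 at -0.61 and CR713 at -0.71. Group means were -0.11 ± 0.44 (control vehicle, n = 4), 0.03 ± 0.55 (diabetic vehicle, n = 5), -0.13 ± 0.77 (control rosiglitazone, n = 5) and 0.19 ± 0.53 (diabetic rosiglitazone, n = 5), each with a spread wider than any difference between them. Against the mean of the other 4 mice of its group, CR715 was higher by 4.48 for Fosb, 2.41 for Ier2 and 2.11 for Junb, but by 0.01 for Ier3. DR716 was higher by 2.82 for Fosb and by 1.42 each for Junb and Nr4a1, with Ier3 at -0.24. DV706 was higher by 2.49 for Fosb, 1.93 for Egr3 and 1.49 for Ier2, with Ier3 at -0.57. The 3 arrays were singled out after their values were seen.

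**Figure D4:**
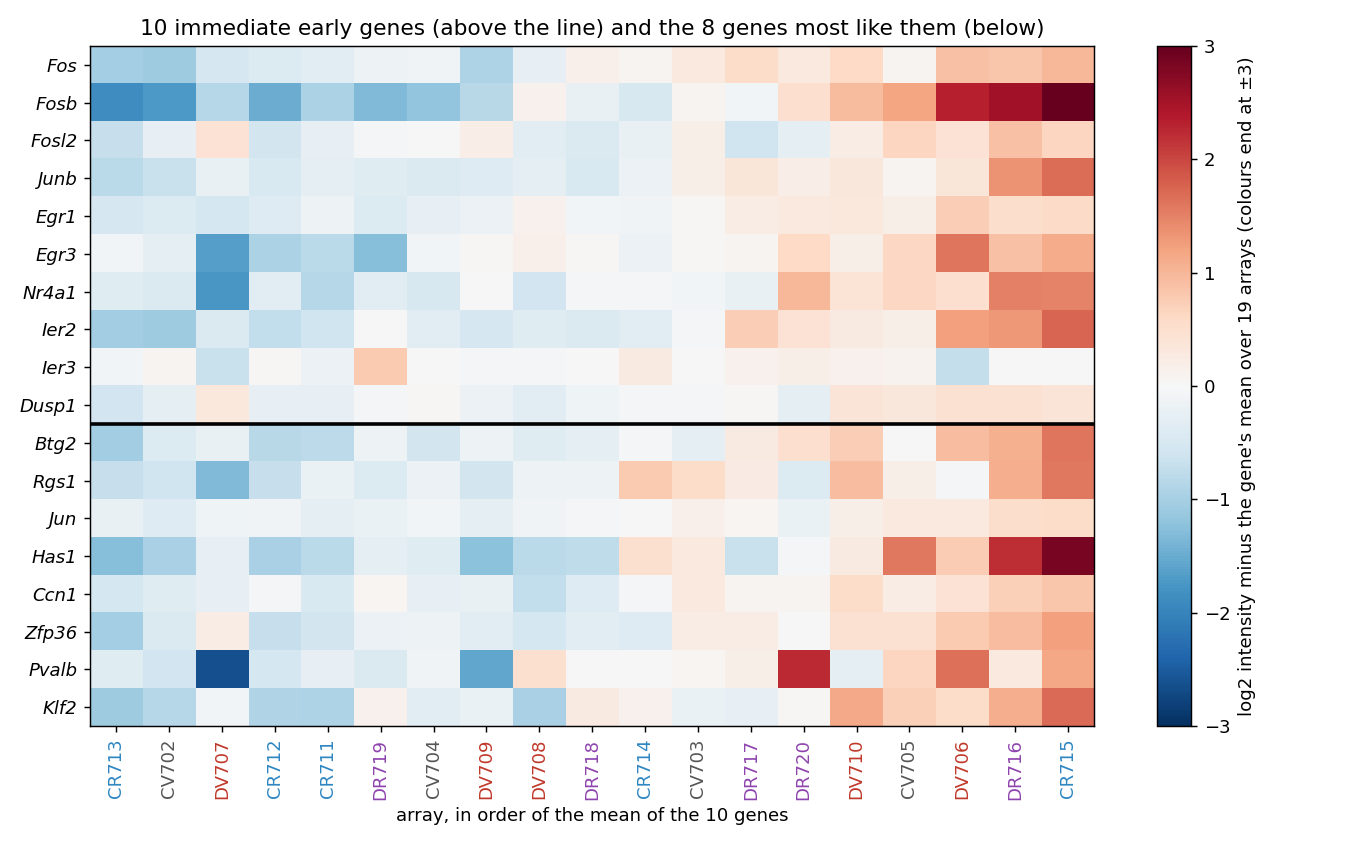
Log2 intensity of the 10 genes and, under the line, of the 8 genes most like them (rows) minus each gene's mean over the 19 arrays, as colour, with arrays (columns, names coloured by group) in the order of the mean of the 10 genes. DV706, DR716 and CR715, at 0.78, 1.03 and 1.19, are high in most rows, and Ier3 departs from that pattern, with its lowest value in DV706.

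For the same 3 arrays, markers of other cell types are given here as the mean of each list after the same centring. No list set all 3 arrays outside the range of the other 16. The 10 skeletal muscle genes stood at 2.63 in DV706, 2.74 in CR715 and 2.79 in DR716, with 10 of 10 above the median of the other arrays in each. The other 16 arrays ran from -2.84 to 3.97, and DR720, at 3.97, had an immediate early gene level of 0.30. The 13 tested sensory neuron genes stood at -2.41, -3.59 and -3.47, with 0 of 13 above that median, and the other 16 arrays ran from -3.29 to 1.84. DV707 and DV709, at -3.29 and -2.82, were as low, and their immediate early gene levels were -0.58 and -0.28. Smooth muscle and pericyte genes stood at 0.58, 1.05 and 0.80 against -0.89 to 0.65, and the 8 tested adipocyte genes at -0.47, 2.92 and 1.73 against -4.23 to 1.74. The 7 tested genes of myelinating Schwann cells stood at 0.09 in DV706 and -0.61 in DR716 against -0.67 to 0.39, and were lowest of all in CR715. The 8 tested genes of non-myelinating and repair Schwann cells stood at -0.26, -1.47 and -0.87 against -0.86 to 0.84, and the 5 tested satellite glia genes at -1.44, -1.57 and -1.64 against -1.94 to 0.86. Fibroblast genes stood at -0.14, 0.38 and 0.55 against -0.67 to 0.43, and endothelial genes at 1.06, 0.44 and 0.10 against -0.64 to 0.86. Over the 19 arrays the level of the 10 genes correlated, as a description, at r = 0.68 with smooth muscle and pericyte, 0.61 with fibroblast, 0.58 with skeletal muscle, -0.60 with myelinating Schwann and -0.58 with non-myelinating and repair Schwann genes. Many transcripts of the inducible heat shock list rise under thermal and proteotoxic stress. Its mean stood at -0.0038, 0.08 and 0.05, inside the range of the others, -0.43 to 0.81. Over the 19 arrays this mean correlated with the level of the 10 genes at r = 0.34 and rho = 0.49. Within the list rho ran from -0.24 for Hspa8 to 0.60 for Hspa1a. The Gapdh 3′ minus 5′ difference was 3.71 in DV706, 1.23 in CR715 and 1.75 in DR716, and that of beta-actin 2.73, 0.63 and 1.70. Both differences were highest in DV707, DV706 and DR716, in that order, and the next arrays had 1.37 for Gapdh and 1.31 for beta-actin. The median intensity was 84.5, 86.7 and 87.5 in DV706, CR715 and DR716, 83.3 in DV707 and 88.0 in DV709, and 93.3 to 101.7 in the other 14 arrays. The part of tissue content, RNA integrity and median intensity in the levels of the immediate early genes was not tested.

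**Figure D5:**
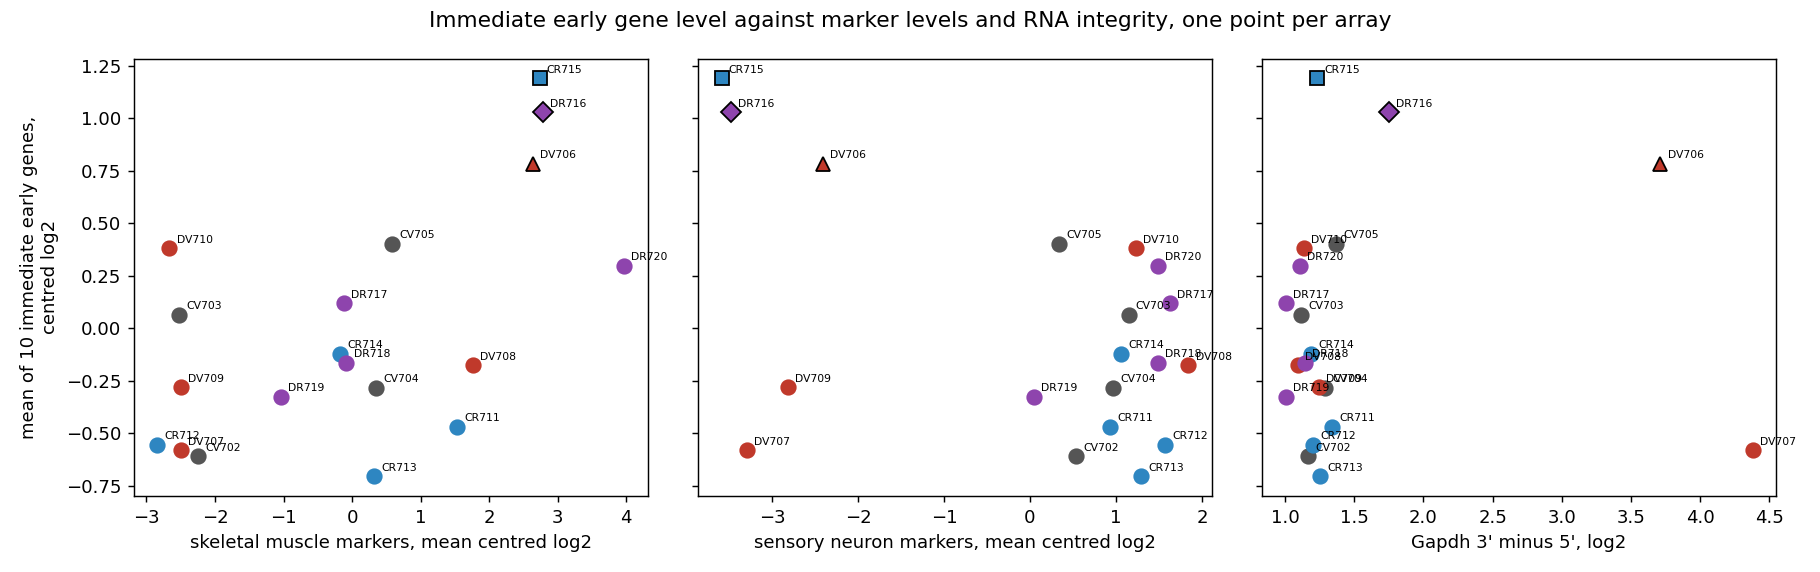
Mean centred level of the 10 immediate early genes (vertical axis, log2) against that of skeletal muscle markers, of sensory neuron markers and the Gapdh 3′ minus 5′ difference (horizontal axes, log2) in the 19 arrays, with every point 1 mouse coloured by group. CR715, DR716 and DV706 lie at the top of each panel, while DR720, highest in muscle markers, lies at 0.30 and DV707, low in neuron markers, at -0.58.

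Of the 8 genes outside the 10 that followed their level most closely, 5 were on the lists of further immediate early genes. By Spearman's correlation over the 19 arrays with the mean centred level, the 8 highest of 13450 genes were Btg2 (rho = 0.88), Rgs1 (0.85), Jun (0.84), Has1 (0.83), Ccn1 (0.82), Zfp36 (0.80), Pvalb (0.80) and Klf2 (0.79). Btg2, an antiproliferative factor, was 10.33, 10.99 and 10.47 in DV706, CR715 and DR716, and 8.35 to 10.12 in the other 16 arrays. Jun, the partner of Fos in AP-1, was 12.31, 12.55 and 12.54 there, and 11.62 to 12.29 elsewhere. Zfp36 (tristetraprolin), which speeds the decay of immediate early messages, was 11.21, 11.66 and 11.35 against 9.40 to 10.89. Ccn1 and Klf2 are on those lists too, Pvalb, a calcium-binding protein, is on the skeletal muscle list, and Rgs1 and Has1 are on none. Pvalb was 11.61 in CV703 and 8.90 in DV707, whose skeletal muscle levels were both low, at -2.53 and -2.50. What its correlation reflects was not tested. The 4 lowest were Ubxn10 (-0.79), 2810433D01Rik (-0.78), Pag1 (-0.77) and Daam2 (-0.77).

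The wider pathway was read from 4 gene lists. Of 21 further immediate early transcription factors, 19 correlated positively with the level of the 10 genes, with a median rho of 0.47, against -0.01 over all tested genes, of which 48.1% were positive. Atf3, a stress and nerve injury factor, was 11.36, 12.29 and 11.93 in DV706, CR715 and DR716, and 8.79 to 10.61 in the other 16 arrays. Egr2, which drives myelination, was an exception with a rho of -0.42, and it is also a marker of myelinating Schwann cells. Of 31 feedback regulators and effectors 22 were positive (median 0.34), of 19 upstream kinases and factors 14 (median 0.18), and of 10 inducible heat shock genes 7 (median 0.21). Among the effectors, Hbegf, an EGF receptor ligand, had a rho of -0.51 and Gadd45b, a stress-induced growth arrest gene, of -0.32.

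In no comparison did a gene of these 4 lists pass an adjusted p under 0.05, so the counts that follow are at an unadjusted limma p under 0.05. Under diabetes with vehicle, 2 of the 21 transcription factors were above and 1 below 0, namely Egr4 at 0.43 (SE 0.19), Bhlhe40 at 0.33 (SE 0.15) and Klf6 at -0.35 (SE 0.16). Egr4 was dim, with log2 intensities of 5.49 to 6.48 over all arrays, near the filter for testing (5.54). Of the 31 feedback regulators and effectors 0 were above and 4 below, with Dusp6, the phosphatase of ERK, at -0.44 (SE 0.13), Gadd45a at -1.21, Gadd45b at -1.12 and Rhob at -0.54. Of the 19 upstream genes Mrtfb, an SRF coactivator, was at 0.63 (SE 0.20) and Braf, a kinase above ERK, at -0.62 (SE 0.25), and of the 10 heat shock genes Hspe1, Hsph1 and Hsp90aa1 were at -0.43, -0.48 and -0.32. These counts stand against 10.7% higher and 7.39% lower of all tested genes. Without DV706 and DV707, a setting added after the data were seen, Dusp6 was the 1 gene of the 4 lists with such a p in this comparison.

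With rosiglitazone in diabetic mice, 1 of the 21 transcription factors had such a p, Nr4a2, a relative of Nr4a1, at -0.45 (SE 0.20). So had 2 of the 31 effectors, Gadd45b and Nfkbia at 1.11 and -0.27, 2 of the 19 upstream genes, Prkaca and Creb1 at 0.59 and -0.41, and 1 of the 10 heat shock genes, Hspe1 at 0.36, against 4.13% higher and 5.56% lower of all tested genes. None of these 6 had such a p without DV706 and DV707, where Ptgs2 was the 1 gene of the lists. In that fit 0.624% of all tested genes were higher and 1.29% lower at such a p. Ptgs2 ran from 3.19, below the level of the filter (5.54), to 10.44 over all arrays. Its mean in diabetic vehicle mice was 7.34 ± 2.44 (n = 5). In control mice rosiglitazone gave 3 of the 31 effectors, Dusp6 at -0.42 (SE 0.13), Dusp4 at 1.20 and Rhob at -0.48, and 1 of the 19 upstream genes, Creb1 at -0.32, against 1.48% and 1.35% of all tested genes. Dusp4 was 9.61 in CR715, 7.89 in DR716 and 6.79 in DV706, and 5.80 to 7.73 in the other 16 arrays. Its mean in control rosiglitazone mice, 7.40 ± 1.37 (n = 5), thus leaned on CR715. Dusp6 was 11.86 ± 0.14 in control vehicle mice (n = 4), and 11.42 ± 0.22 in diabetic vehicle, 11.44 ± 0.16 in control rosiglitazone and 11.39 ± 0.19 in diabetic rosiglitazone mice (n = 5 each). Its control vehicle and control rosiglitazone values did not overlap, a state that 1.87% of all tested genes shared in that direction. For the interaction 2 of the 31 effectors had such a p, Dusp6 at 0.39 (SE 0.18), with an adjusted p of 0.748, and Arc, a neuronal effector gene, at -0.67, against 1.88% and 2.89% of all tested genes. Without DV706 and DV707 it was Arc alone, a dim gene with log2 intensities of 5.23 to 6.45 over all arrays, near the filter (5.54). In that fit 0.981% of all tested genes were higher and 1.22% lower at such a p. Diabetes under rosiglitazone gave 1 of the 19 upstream genes, Mapk8 (JNK1), at 0.25, and 0 of the other 3 lists, against 0.468% and 0.817% of all tested genes.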

How the data were processed

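The values deposited by the authors are linear intensities, 1 for each probe set of an array. RMA is named without a version, per the submitters' processing notes. RMA returns log2 values, and the step back to a linear scale and the software are not given in the sources used here. Intensities ran from 3.76 to 30602 and array medians from 83.3 to 101.7. Of 45037 probe sets that are not controls, 34945 had 1 symbol in the platform annotation, 932 several and 9160 none.

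From these values log2 was taken with no offset. Each gene was represented by the brightest probe set on average, and 13460 genes with a mean above the 40th percentile (5.54) were tested. One limma 3.58.1 model in R 4.3.3 held a mean for each of 4 groups, with eBayes and Benjamini-Hochberg adjustment over all tested genes within each comparison at 0.05. All p-values are two-sided, measure the spread between mice with 1 array each, and are limited by the number of arrays. The scripts were tested on simulated data. The genes, the lists and the other settings were chosen with earlier results of these data known. Named are the 10 genes in every comparison, up to 4 genes with the smallest p of each pathway list, and the 8 most and 4 least like genes. Atf3, Egr2, Hbegf and Gadd45b were also named for their correlations after these were seen. Alternatives were no filter, the mean of all probe sets, quantile normalization, an offset of 16, array weights, the Gapdh covariate, and arrays left out.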

Additional observations from a re-analysis of the deposited data

Results flagged for a closer look

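In 40 checks of 1 gene in 1 group, 4 single arrays lay far from the rest of their group by Dixon's test at 95%, which chance gives in about 1 of 20 groups, or 2 of 40. CR715 accounted for 3 of them, and neither DR716 nor DV706 for any. The checks reuse the same arrays for genes that correlate with each other, so they are not 40 separate observations. Fosb was 11.52 in CR715 and 6.38 to 7.75 in the other 4 control rosiglitazone mice. Junb was 8.91 there and 6.43 to 7.06 in the others, and Ier2 was 9.36 and 6.57 to 7.31 in the others. The fourth was Ier3 in DR719, at 11.87 against 11.08 to 11.29 in the other 4 diabetic rosiglitazone mice.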

How the results depend on the processing

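No gene count changed from 0 except under 2 settings: limma called 4 genes for diabetes under vehicle without DV710 (range 0 to 4 over arrays left out in turn) and 20 for rosiglitazone in control mice with array weights, and 0 of the 10 immediate early genes were among them. No paired analysis was possible because no replicate number is shared between groups. No estimate of the 10 genes passed an adjusted p under 0.05 under any setting tried. At an unadjusted p under 0.05 the calls changed. With array weights Fos, Egr1 and Ier2 were higher for diabetes under rosiglitazone, at 0.70, 0.35 and 0.83 (median of the 10 genes 0.37), and Fosl2 and Dusp1 lower for rosiglitazone in control mice, at -0.55 and -0.28 (1 of 10 positive, median -0.25). With weights, 3.02% of all tested genes were higher in the first comparison and 8.13% lower in the second, at the same threshold. For rosiglitazone in diabetic mice Ier3 was 0.27 with weights and no longer had such a p, nor had it without DV706 and DV707, without these and DR716, without the 5 arrays named below, or with the Gapdh covariate. Without the 5 arrays Fosl2 was lower for rosiglitazone in control mice (-0.57) and Ier2 higher for diabetes under rosiglitazone (0.86), and without DV710 Ier3 was lower for diabetes under vehicle (-0.41). The shares of all tested genes called in these directions, in the same order, were 4.32%, 2.32% and 12%. The interaction of Ier3 had such a p without DV708, DV709, DV710, CR714 or DR718, each left out alone. In these fits 1.84%, 3.79%, 4.99%, 1.81% and 1.19% of all tested genes were higher at such a p, in the same order. The values that changed sign follow, and the cause was not tested.

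For diabetes under vehicle, Fosl2 was -0.0050 and Nr4a1 0.057 with array weights. Without DV706 and DV707, and also without these and DR716, Fosl2 was -0.11, Nr4a1 0.039 and Dusp1 -0.054. Without these 3 arrays, DV709 and CR715, which were low in sensory neuron transcripts, Fosl2 was -0.20, Nr4a1 0.0081 and Ier3 0.0013. With the Gapdh covariate Fosl2 was -0.17 and Dusp1 -0.062. For rosiglitazone in diabetic mice, Egr1 was -0.091 with weights, -0.093 without DV706, DV707 and DR716, -0.23 without the 5 arrays, where Junb was -0.080, and -0.011 after quantile normalization. Fosb was 0.20 and Dusp1 0.048 without DV706 and DV707, and 0.24 and 0.061 with the Gapdh covariate. For rosiglitazone in control mice, Fos, Fosb, Junb, Nr4a1, Ier2 and Ier3 were -0.23, -0.54, -0.15, -0.041, -0.29 and 0.029 with weights, and the first 5 were -0.23, -0.78, -0.23, -0.31 and -0.36 without the 5 arrays. For diabetes under rosiglitazone, Fosl2 was -0.13 and Junb -0.052 without DV706, DV707 and DR716.

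For the interaction, Fosb was 0.060 with weights, 0.088 without DV706 and DV707 and 0.13 with the Gapdh covariate. Without DV706, DV707 and DR716, Fosl2, Junb, Egr1 and Egr3 were -0.020, -0.14, -0.091 and -0.012, and without the 5 arrays Egr1 was -0.053. Quantile normalization gave -0.0021 for Junb and -0.0092 for Egr1, and the mean of all probe sets -0.045 for Fosl2 and -0.15 for Egr3.

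Leaving out each array in turn, estimates that changed sign ran as follows. For diabetes under vehicle the range was -0.13 to 0.39 for Fos, -0.082 to 0.21 for Fosl2, -0.38 to 0.43 for Egr3 and -0.38 to 0.18 for Nr4a1. For rosiglitazone in diabetic mice it was -0.63 to 0.43 for Fosb, -0.024 to 0.43 for Junb, -0.15 to 0.17 for Egr1 and -0.43 to 0.38 for Egr3. For rosiglitazone in control mice it was -0.24 to 0.27 for Fos, -0.78 to 0.64 for Fosb, -0.23 to 0.39 for Junb, -0.17 to 0.10 for Egr1, -0.31 to 0.31 for Nr4a1, -0.36 to 0.34 for Ier2 and -0.094 to 0.019 for Ier3. For diabetes under rosiglitazone it was -0.13 to 0.33 for Fosl2 and -0.052 to 0.65 for Junb. For the interaction it was -0.74 to 0.72 for Fosb, -0.18 to 0.28 for Fosl2, -0.22 to 0.49 for Junb, -0.15 to 0.18 for Egr1, -0.18 to 0.63 for Egr3 and -0.069 to 0.18 for Dusp1. Ier3 for rosiglitazone in diabetic mice kept its sign, at 0.35 to 0.59.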
